A study of Mus musculus with 4 samples.

Results

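The genes described here are the nuclear genes that encode subunits of the mitochondrial respiratory chain and of ATP synthase, in single spleen cells of mice that lack miR-146a, with or without miR-155 in T cells. They were chosen by symbol alone: Ndufa, Ndufb, Ndufc, Ndufs and Ndufv genes for complex I, Uqcr genes for complex III, Cox4 to Cox8 genes for complex IV and Atp5 genes for complex V. The pattern found 79 symbols among 31053 annotated features. Of these, 74 held at least 20 unique molecular identifiers (UMIs, each 1 captured RNA molecule) over all annotated cells and were kept: 35 for complex I, 8 for complex III, 15 for complex IV and 16 for complex V. The 5 left out were Cox7b2 and Cox8c with 0 UMIs, Cox8b and Ndufa4l2 with 1 each, and Cox4i2 with 10; the kept genes nearest to the limit were Cox7a1 with 50 and Cox6b2 with 188. Ndufa4 and Ndufa4l2 match the complex I pattern but are counted under complex IV, where their proteins are now placed. A few names of the pattern encode factors that were not counted as structural subunits: Cox7a2l is a factor for joining complexes, and Atp5s was once called coupling factor B.

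Oxidative phosphorylation passes electrons from NADH and succinate through complexes I, II, III and IV to oxygen, and the proton gradient this builds drives ATP synthase, complex V. Most subunits are encoded in the nucleus and imported, and a core set is encoded by the mitochondrial genome, so each complex other than complex II needs both genomes. In immune cells, resting lymphocytes draw much of their ATP from this pathway, activated and dividing lymphocytes raise both it and glycolysis, and mature neutrophils have few mitochondria and rely on glycolysis.

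There were 4 libraries of 10x Genomics droplet RNA sequencing, 1 for each group, so no comparison has replicates and none carries a p-value. All mice were C57BL/6. The young wild type (WT) is labelled young with no age; the aged WT, the miR-146a knockout and the double knockout were aged for 15 months. The series' text gives the WT as miR155 fl/fl, the miR-146a knockout as whole-body, and the double knockout as the same knockout with a conditional deletion of miR-155 in T cells; the driver of that deletion is not named, and whether the single knockout also carries the floxed allele is not said. Spleens were pooled within a group (3 to 6 mice), and live (DAPI-) CD45+ cells of low forward and side scatter were sorted, so spread between animals cannot be seen. The labels contradict each other on whether the 3' or the 5' end of each RNA was read. MicroRNAs themselves were not read by this assay, so the genotypes were not checked here. Intervals below are exact 95% intervals for counting error only.

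The files held 5702 to 7626 barcodes a library, of which the authors named 4832 to 6821 as 1 of 16 cell types, with a median of 2054 to 2649.5 UMIs per named cell; 40 to 66 barcodes were shared between the named cells of any pair of libraries. The T, B, NK, monocyte and granulocyte names matched their defining markers, and the T/B dbl cells carried both T and B markers. The germinal centre names went against the division genes. Cells named GC Centrocyte held 654 to 982 UMIs per 1000000 UMIs of the cells (CPM) of the division genes Mki67 and Top2a, against 5.36 to 14.2 in cells named GC Centroblast, although centroblasts are the dividing cells. The authors' names are kept here as names only. The knockout libraries stood apart in granulocyte transcripts: S100a8 lay between 214 and 757 CPM in types other than granulocytes and Ly6c+ monocytes that were near 0 to 29 CPM in WT, and granulocytes numbered 37, 16, 293 and 461 cells in young WT, aged WT, the miR-146a knockout and the double knockout. Values are given in that order of libraries throughout.

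Together the 74 genes made up 1.92% of all UMIs of named cells, and 1.90%, 1.85%, 1.97% and 1.96% in the libraries in turn. Complex I gave 29.7% of these UMIs, complex III 11.3%, complex IV 29.4% and complex V 29.6%. Of the 74, 70 had at least 1000 UMIs. The most abundant complex IV gene was Cox4i1, which encodes the main isoform of subunit IV, at 866, 836, 897 and 884 CPM over all named cells. In complex V it was Atp5l over all libraries, for subunit g of the membrane part, at 598, 595, 636 and 629 CPM; in aged WT Atp5b was higher, at 615 CPM. Uqcrh, the hinge subunit that helps cytochrome c dock, led complex III at 721, 668, 697 and 675 CPM, and Ndufa13, an accessory subunit, led complex I at 377, 375, 397 and 394 CPM. At the other end, Ndufs1, the large iron-sulfur subunit of complex I, had 37.1, 41.3, 34.7 and 37.2 CPM, and Uqcrc2, a core subunit of complex III, had 146, 144, 141 and 146 CPM. In none of these 6 genes did the highest library exceed the lowest by as much as 1.2-fold. Counts were not divided by gene length, so they order RNA molecules captured, not transcription. Cox7a1, the muscle isoform, and Atp5s were the lowest of complexes IV and V, at most 1.32 and 5.07 CPM in any library.

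The summed level of the genes differed between cell types in every library. Follicular B cells (Fo B) had 16570, 16004, 16120 and 16616 CPM, which was near the bottom in each library. Marginal zone B cells lay just above, at 17599, 16900, 17537 and 17622 CPM. Naive Cd4 T cells had 18922, 19027, 20216 and 19687 CPM and memory Cd4 T cells 20561, 20994, 21423 and 22229 CPM, so memory cells were above naive cells in all 4 libraries on this scale. NK cells had 22866, 22561, 23967 and 24121 CPM. The order of types depends on the total: without mitochondrial, ribosomal, antigen receptor and haemoglobin genes in it, naive Cd4 cells (32668, 30672, 30672 and 31321 UMIs per 1000000) were above memory Cd4 cells (31592, 29329, 29700 and 30409), and NK cells had 29709, 30775, 34941 and 32714. In the 3 aged libraries the highest CPM belonged to 3 small types. The dividing cells named GC Centrocyte had 25882, 26611, 26460 and 27443 CPM (44, 51, 129 and 150 cells), with T cell markers at 1393 and 1307 CPM in the WT libraries and erythroid markers at 5042 and 2863 CPM in the knockouts beside them. Early activated Cd8 T cells had 21875, 24242, 27532 and 27536 CPM (70, 14, 35 and 43 cells). The third was the Ly6c+ monocytes, with 23133, 23513, 29814 and 30133 CPM (53, 76, 78 and 106 cells). Of the 16 types, these monocytes had the widest gap between the lower knockout library and the higher WT library, and the early activated Cd8 cells the next. With that other total the Ly6c+ monocytes stood at 30445, 31033, 39302 and 39138, below naive Cd8 T cells (34540 and 34450) in WT. When every cell was thinned to 1000 UMIs, the median Fo B cell held 16 UMIs of the set in each library, the median GC Centrocyte cell 23, 26, 26 and 27, and the median Ly6c+ monocyte 23, 24, 30 and 29.5.

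**Figure D1:**
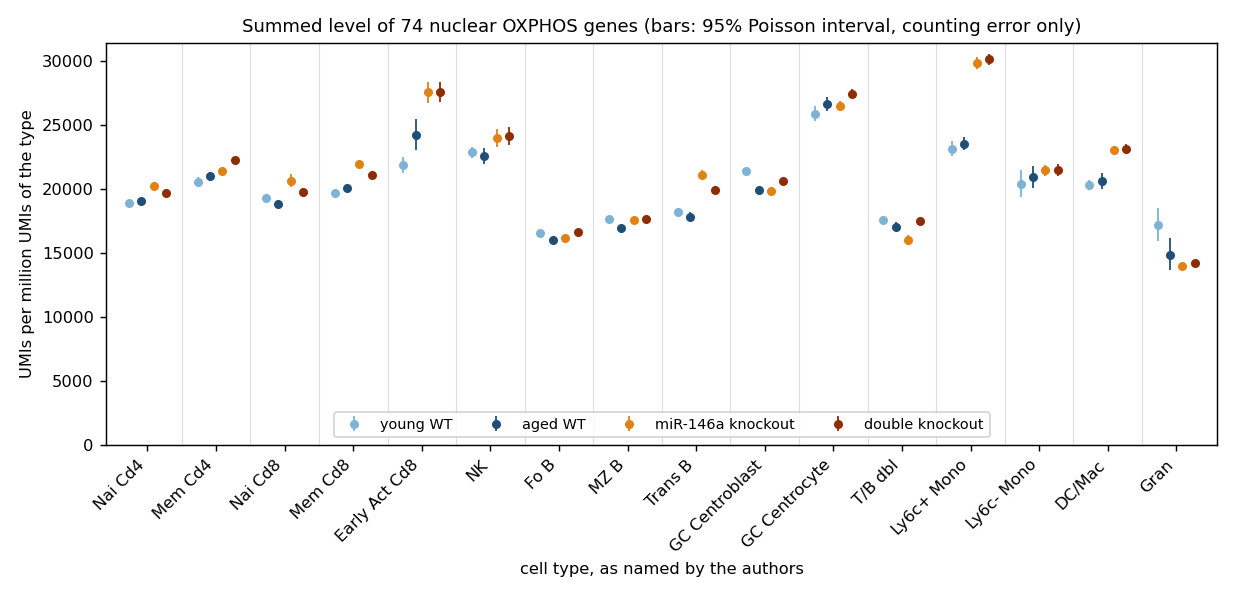
Summed level of the 74 nuclear oxidative phosphorylation genes (vertical axis, CPM) in each of the 16 named cell types (horizontal axis), with 1 point for each library and bars for the exact 95% counting interval. Fo B cells and granulocytes lie at the bottom and GC Centrocyte cells, early activated Cd8 cells and Ly6c+ monocytes at the top; the 2 knockout points stand above the 2 WT points in Ly6c+ monocytes (29814 and 30133 against 23133 and 23513 CPM).

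Granulocytes were lowest in the 3 aged libraries, with 17175, 14858, 13970 and 14211 CPM. The 13 mitochondrially encoded genes were low in them as well, at 10151, 7900, 6720 and 7321 CPM, so that granulocytes held 1.69, 1.88, 2.08 and 1.94 nuclear UMIs for each mitochondrially encoded one, against 0.46 to 1.31 in all other types and libraries. The cells named granulocytes also differed between libraries in their own marker: S100a8 stood at 37524 CPM in young WT and 162577, 213320 and 209007 CPM in the aged libraries, and ribosomal protein genes made up 17.2%, 7.51%, 5.28% and 5.27% of their UMIs. The part of these differences in the set's level was not tested.

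Single genes varied over types by more than the sum did. Among the 70 genes with at least 1000 UMIs, the highest type exceeded the lowest by a median of 2.41-fold (libraries pooled, types of at least 100 cells); 14 genes stayed under 2-fold and 15 were over 4-fold. Granulocytes were the lowest type for 43 of the 70 and Fo B cells for 22. The pooled granulocyte level is mostly that of the knockouts, with 41573, 38228, 1269236 and 2009847 UMIs of all genes in the libraries in turn. In young WT the summed level of granulocytes (17175 CPM) was above that of Fo B cells (16570 CPM). Ly6c+ monocytes were the highest type for 24, early activated Cd8 T cells for 21 and GC Centrocyte cells for 17. The complexes differed in this: of the 15 complex V genes among the 70, 7 peaked in the GC Centrocyte cells and 3 in Ly6c+ monocytes, while 14 of the 35 complex I genes peaked in Ly6c+ monocytes and 5 in the GC Centrocyte cells.

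Among these 70 genes the widest range belonged to Atp5g1, 1 of 3 genes for the identical mature subunit c, which forms the rotor ring of ATP synthase. Early activated Cd8 T cells had 536, 559, 786 and 814 CPM of it and granulocytes 72.2, 26.2, 64.6 and 77.1 CPM, a pooled ratio of 9.48 (8.06 to 11.2). Both sister genes had wide ranges too, but peaked in the dividing GC Centrocyte cells: Atp5g2 at 689, 600, 623 and 616 CPM against 168, 209, 89.8 and 102 CPM in granulocytes (pooled ratio 6.30), and Atp5g3 at 363, 282, 358 and 303 CPM against 48.1, 105, 61.5 and 72.6 CPM (4.77). In each library, then, granulocytes were the lower type for all 3 genes. Part of the 3' ends of Atp5g1 and Atp5g2 (14.5% and 29.6% of the last 400 bases) also occurs in other genes' transcripts, so their counts are less certain. Atp5a1, the alpha subunit of the catalytic head, had 625, 701, 691 and 704 CPM in the GC Centrocyte cells and 120, 105, 99.3 and 110 CPM in granulocytes (pooled ratio 6.50).

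Complex I gave 3 of the widest ranges. Ndufa12, an accessory subunit of the matrix arm, had 177, 233, 273 and 344 CPM in early activated Cd8 T cells against 24.1, 78.5, 33.1 and 39.3 CPM in granulocytes, a pooled ratio of 6.84. Ndufs3, a core subunit of the arm that passes electrons to ubiquinone, had 126, 140, 169 and 119 CPM against 48.1, 78.5, 19.7 and 23.4 CPM (5.95), and Ndufa5, its neighbour in that arm, 214, 295, 253 and 255 CPM against 0, 105, 42.5 and 40.8 CPM (5.86). The WT granulocyte values of these 3 genes rest on 0 to 4 UMIs each. Atp5s, outside the 70, had a ratio of 8.01 that rests on 7 UMIs in Ly6c- monocytes and 1 in NK cells. Cox7a2l was highest in naive Cd8 T cells (951, 864, 748 and 895 CPM) and lowest in granulocytes (625, 314, 184 and 180 CPM, pooled ratio 4.81). A few genes went against the low level of granulocytes. Ndufb7, an accessory subunit of complex I's membrane arm, was highest there, at 265, 471, 448 and 447 CPM, against 197, 186, 173 and 195 CPM in Fo B cells (pooled ratio 2.37). As shares of the set, Ndufb7 was 2.48 times as large in granulocytes as over all cells, Ndufa1 2.05 times and Ndufv3 1.87 times, while Ndufs3 was 0.28, Atp5g2 0.34 and Atp5g1 0.37 of its share over all cells. The gene with the least range was Cox6a1, the widely expressed isoform of subunit VIa, at a pooled ratio of 1.58.

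**Figure D2:**
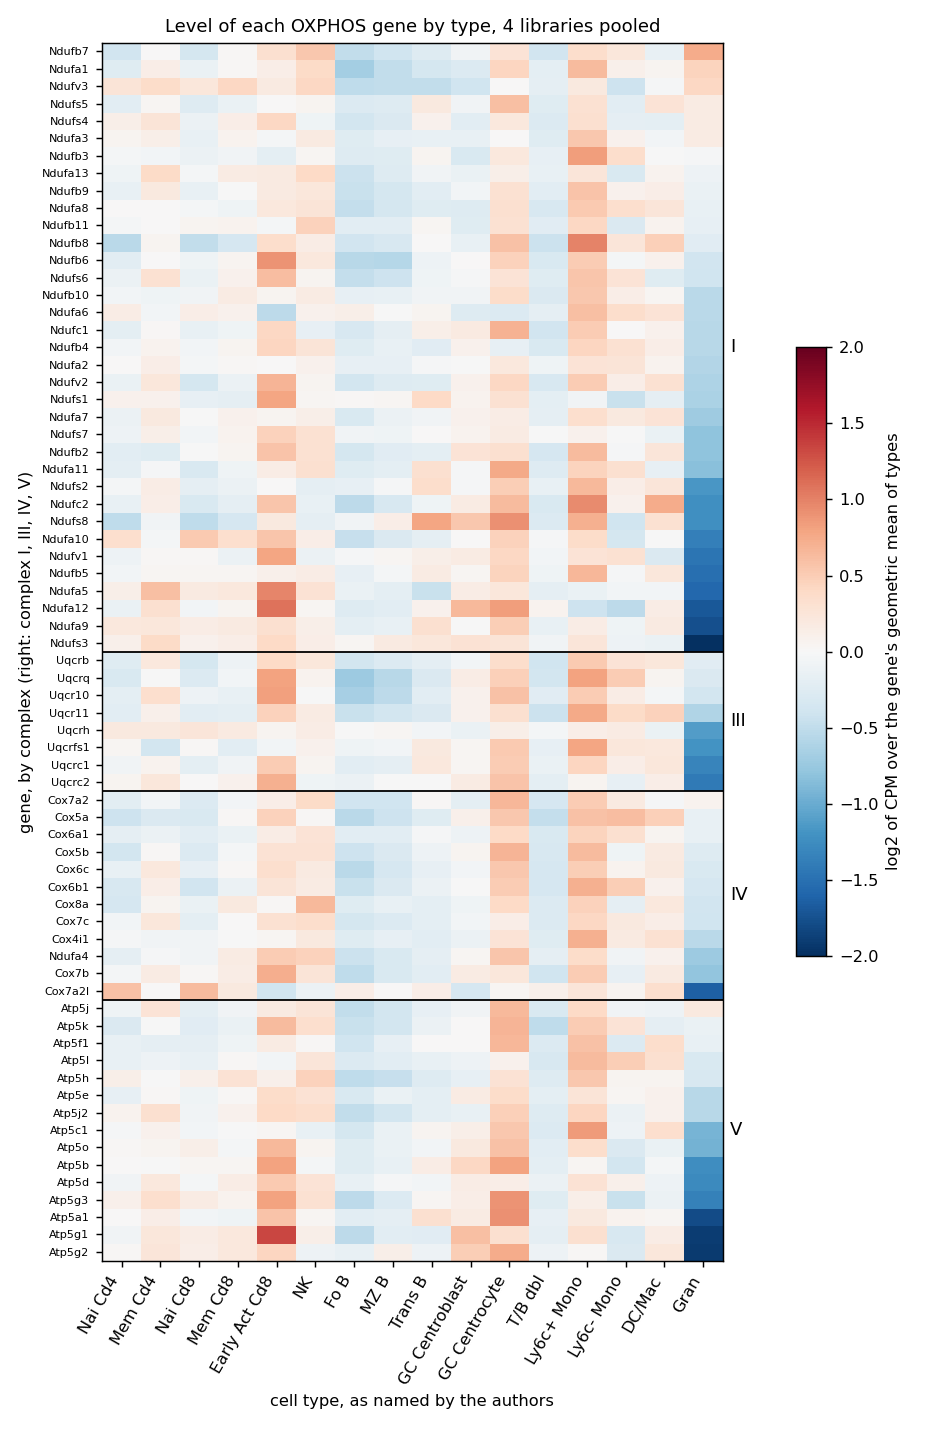
Level of each of the 70 genes with at least 1000 UMIs (rows, ordered by complex) in the 16 named types (columns), libraries pooled, as the log2 ratio to the gene's mean over types. The granulocyte column is low for most rows and high for a few such as Ndufb7, and the columns of Ly6c+ monocytes, early activated Cd8 cells and GC Centrocyte cells are high for most rows.

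Of the tissue-specific isoforms, 1 had most of its UMIs in a single cell type. Cox6a2, the isoform of subunit VIa known from heart and skeletal muscle, had 416 UMIs in all, of which 331 lay in the cells named DC/Mac. Its level there was 244, 115, 91.5 and 167 CPM, with UMIs in 17 of 106 cells (16.0%), 3 of 44 (6.82%), 12 of 158 (7.59%) and 13 of 145 (8.97%). It had at most 2 UMIs per library in naive Cd4 T cells, Fo B cells or granulocytes. NK cells held 4, 2, 5 and 3 UMIs, in 3 of 228 (1.32%), 2 of 97 (2.06%), 3 of 49 (6.12%) and 2 of 71 cells (2.82%), and in the miR-146a knockout the interval of that share (1.28% to 16.9%) includes the share in DC/Mac cells. The DC/Mac cells that held it were few. Of the 45 DC/Mac cells with a Cox6a2 UMI, 39 (86.7%, exact interval 73.2% to 94.9%) also held a UMI of Siglech, a surface receptor that defines plasmacytoid dendritic cells, against 15 of the other 408 (3.68%, 2.07% to 5.99%). Ccr9, a homing receptor of the same cells, was found in 36 of the 45 (80.0%) and in 22 of the 408 (5.39%), and Tcf4, their master transcription factor, in 41 (91.1%) and 101 (24.8%). In contrast the macrophage genes C1qa and C1qb were found in 1 and 0 of the 45 and in 89 and 95 of the 408, and Xcr1, of conventional dendritic cells, in 0 and 30. Other dendritic cell genes went the other way: Clec9a was found in 9 of the 45 and 17 of the 408, and Cd209a in 13 (28.9%) and 68 (16.7%). The 2 sets of cells had like depths, at a median of 4868 and 4772 UMIs, and Cox6a1 was found in 39 of the 45 (86.7%) and 331 of the 408 (81.1%). The cells with a Cox6a2 UMI were picked by that UMI, so these shares are a description.

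The level of Cox6a2 in DC/Mac cells was highest in young WT, as was the plasmacytoid marker list (Siglech, Bst2, Ccr9 and Tcf4), which summed to 1694, 745, 879 and 842 CPM. The part of cell makeup in the difference was not tested. Cox6a2 had 5.81, 1.46, 18.9 and 12.3 CPM in transitional B cells (Trans B), where it lay in 24 cells, none with Siglech and all with the B cell gene Cd79a. In the double knockout 3 GC Centrocyte cells held 24 UMIs, 21 of them in 1 cell. Cox6b2, known as the testis isoform of subunit VIb, was highest in Ly6c+ monocytes at 20.9, 29.4, 12.0 and 23.4 CPM, which rest on 5, 10, 6 and 14 UMIs; the common isoform Cox6b1 had 611, 595, 950 and 941 CPM in the same cells. The groups overlapped for Cox6b2 and did not for Cox6b1. In these monocytes 27.6% of all features tested lay higher in both knockout libraries than in both WT libraries.

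The clearest difference between libraries with and without miR-146a was in Uqcrq, a small membrane subunit of complex III (gene at chr11:53427922-53430831, minus strand, GRCm38). Its level was higher in both knockout libraries than in both WT libraries in 16 of 16 cell types. In T cells it stood at 233 and 240 CPM in young and aged WT and at 382 and 389 CPM in the miR-146a and the double knockout, a pooled ratio of knockout to WT of 1.63 (1.56 to 1.72). In B cells it stood at 210, 193, 325 and 315 CPM, a ratio of 1.59 (1.52 to 1.66). The step was between genotypes: within the WT pair and within the knockout pair, neither class differed by more than 1.1-fold. The ratio was largest in Ly6c+ monocytes, at 343, 315, 692 and 699 CPM (2.13, 1.81 to 2.51), and smallest in granulocytes, at 216, 209, 262 and 273 CPM (1.26, 0.784 to 2.18), where the WT libraries gave 9 and 8 UMIs. NK cells had 265, 250, 466 and 516 CPM (1.89, 1.54 to 2.32). Fo B cells had the lowest levels in every library, at 175, 154, 234 and 233 CPM (1.43, 1.31 to 1.56), and still did not overlap between genotypes. In Fo B cells 12.9% of all features tested lay higher in both knockout libraries than in both WT libraries. Among the 10 types with at least 50 cells in every library the ratio lay between 1.40 and 2.13.

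Among 71 genes of the set tested in T cells, Uqcrq was the only one at least 1.5-fold higher in both knockout libraries than in both WT libraries; 2.96% of all features tested passed this. In B cells Uqcrq and Cox6a2 did so, 2 of 72, against 3.51% of features, so the count of genes is no larger than the background and the result is about Uqcrq itself. Most complex III genes did not share it. Complex III as a whole was higher in the miR-146a knockout than in aged WT by 1.15-fold in T cells (1.12 to 1.18) and 1.14-fold in B cells (1.11 to 1.16); without Uqcrq the ratios were 1.09 (1.06 to 1.13) and 1.08 (1.05 to 1.10), close to the other complexes. No exact 50-base word of the last 400 bases of Uqcrq occurs in another gene's annotated transcripts. Inexact copies were not looked for, and whether the 3' end was the end read is not settled.

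**Figure D3:**
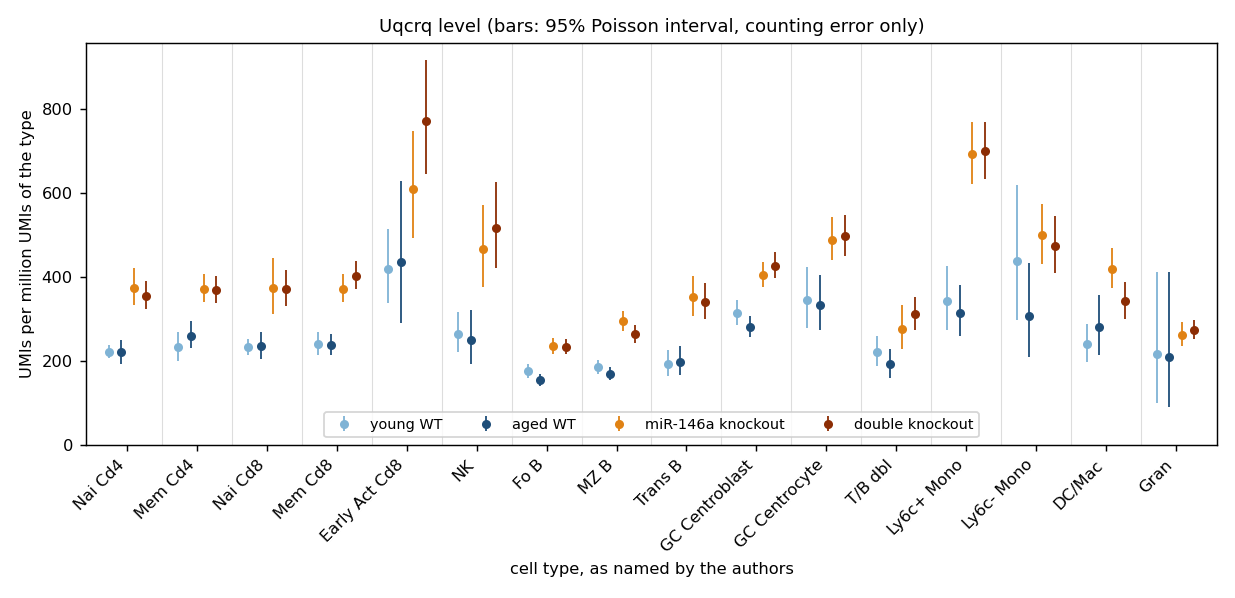
Level of Uqcrq (vertical axis, CPM) in each of the 16 named cell types, with 1 point per library and bars for the exact 95% counting interval. The points of the 2 knockout libraries lie above those of the 2 WT libraries in all 16 types, with the widest gap in Ly6c+ monocytes (692 and 699 against 343 and 315 CPM) and wide intervals for WT granulocytes.

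Since the design removes miR-146a, the mature miRNA was read from RefSeq (GRCm38.p6) and the places in the set that hold its seed match from the GENCODE transcripts of the same build. A miRNA binds targets mainly through its seed, bases 2 to 8, which are in capitals here; miR-155 is shown because the double knockout also lacks it in T cells.
mmu-miR-146a-5p: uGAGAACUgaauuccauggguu
mmu-miR-155-5p: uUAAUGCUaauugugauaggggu
The precursor of miR-146a lies at chr11:43374397-43374461 (minus strand, GRCm38), 10.1 Mb from Uqcrq on the same chromosome. The 7-base match AGTTCTC occurs in an annotated 3' untranslated region of 4 of the 74 genes (5.41%), against 13.3% of 21173 genes; the median longest region is 268 bases in the set and 1080 bases over all genes. The 4 matches are printed as DNA on the gene's strand, with the match in capitals.
Uqcrq: gtactaaaAGTTCTCagaagaga
Ndufb8: cagtctaaAGTTCTCagatttat
Uqcrh: atggagtgAGTTCTCgagaacct
Cox7a2l: gtgtcaggAGTTCTCctttaata
They lie at chr11:53428108-53428114 (Uqcrq, in 1 of 3 annotated transcripts), chr19:44549273-44549279 (Ndufb8, in 1 of 4), chr4:116067048-116067054 (Uqcrh) and chr17:83501991-83501997 (Cox7a2l), all on the minus strand. A match is a description of letters, not a shown site of binding.

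These 4 genes did not move alike. Besides Uqcrq, Ndufb8, an accessory subunit of complex I that is often lost when the complex fails to assemble, had 129, 143, 173 and 161 CPM in T cells (pooled ratio 1.24, 1.15 to 1.33) and 158, 154, 158 and 164 CPM in B cells (1.03, 0.978 to 1.09). Its groups did not overlap in T cells, and the B cell values were nearly level. In T cells both knockout libraries lay above both WT libraries for 47 of 71 genes of the set and 33.2% of all features. Uqcrh had pooled ratios of 1.03 (0.997 to 1.06) in T cells and 1.11 (1.08 to 1.14) in B cells, and Cox7a2l 0.796 (0.771 to 0.822) in T cells and 1.09 (1.06 to 1.12) in B cells. The pooled ratios are not matched for age, since both knockouts were aged and the WT pair includes young WT. For Cox7a2l in T cells young WT was above aged WT, as given below, and Uqcrh in T cells was also lower with age. Those ratios therefore mix age and genotype. For the miR-146a knockout over aged WT alone, the 4 ratios lay between 0.853 and 1.59 in T cells and between 1.03 and 1.68 in B cells. In T cells 3 intervals lay above 1 and 1 below, and in B cells 3 above and 0 below. The same share over all features was not counted. The match of miR-155, AGCATTA, occurs in 8 of the 74 genes (10.8%, against 9.54% of all genes). For these 8 genes the ratio of the double knockout to the miR-146a knockout in T cells, where miR-155 was deleted, lay between 0.932 and 1.10, and each interval included 1.

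Genes near miR-146a other than Uqcrq also differed between genotypes, in both directions. Within 15 Mb of its precursor, a window chosen after the values were seen, 9 of 130 genes tested in T cells, Uqcrq itself and the red cell genes Hba-a1 and Hba-a2 among them, were at least 1.5-fold higher in both knockout libraries than in both WT libraries and 6 were as much lower, against 2.96% and 0.839% of all features. Irgm1, an interferon-induced GTPase, had 43.7, 50.4, 14.9 and 13.7 CPM in T cells, and Tnip1, an inhibitor of NF-kB signalling, 37.6, 41.9, 78.5 and 73.3 CPM. Neither overlapped between genotypes. The labels do not say how the knockout strain was made or backcrossed, and the part of linked DNA in the Uqcrq difference cannot be told apart from that of the deletion.

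The set as a whole differed most between knockout and WT in Ly6c+ monocytes, the circulating inflammatory monocytes. The ratio of the miR-146a knockout to aged WT was 1.27 (1.23 to 1.30) and that of the double knockout to aged WT 1.28 (1.25 to 1.32), whereas aged and young WT differed by 1.02 (0.982 to 1.05) and the knockouts by 1.01. These comparisons share the aged WT library and are not independent. All 4 complexes took part: complex I had 6887, 7006, 8620 and 8988 CPM, complex III 2653, 2750, 3387 and 3444 CPM, complex IV 7184, 7251, 9313 and 9308 CPM and complex V 6410, 6506, 8494 and 8394 CPM. For every complex the knockout libraries lay above the WT libraries by more than the counting intervals. Complex III rested partly on Uqcrq, without which its ratio was 1.11 (1.01 to 1.21). The mitochondrially encoded genes did not follow, with 22016, 22359, 22722 and 23452 CPM, a ratio of 1.02 (0.987 to 1.05) for the miR-146a knockout against aged WT.

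Of 69 genes tested in these monocytes, 42 were at least 1.2-fold higher in the miR-146a knockout than in aged WT and 0 were as much lower, against 28.3% and 24.6% of all features. The median log2 ratio was 0.36 for the set and 0.04 for all features. With TMM scaling 52 were higher and 0 lower, and the shares of all features were not recounted with it. By complex, 19 of 34 genes of complex I, 3 of 8 of complex III, 10 of 12 of complex IV and 10 of 15 of complex V were higher. In the double knockout 46 of 69 were higher and 1 lower, against 28.3% and 23.1% of features. Between aged and young WT the counts were 10 and 7 of 67, against 19.2% and 19.7%. In 59 of 70 genes both knockout libraries were above both WT libraries, and in 3 both were below, against 27.6% and 22.2% of features. In the miR-146a knockout the share of genes past 1.2-fold was thus lowest in complex III and highest in complex IV.

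After Uqcrq, large ratios in Ly6c+ monocytes belonged to genes of all parts of the chain; they are named here after their values were seen. Atp5g3, the third gene for the rotor subunit, had 105, 124, 244 and 215 CPM, 1.97-fold (1.38 to 2.87) in the miR-146a knockout over aged WT. Atp5k, subunit e, through which ATP synthases pair in the inner membrane, had 234, 203, 364 and 377 CPM (1.79, 1.35 to 2.40). Neither gene overlapped between genotypes. Cox6b1, which clamps the dimer of complex IV on its outer side, had 611, 595, 950 and 941 CPM (1.60, 1.35 to 1.89). Ndufv3, an accessory subunit at the NADH end of complex I, had 142, 135, 230 and 274 CPM (1.70, 1.2 to 2.45). Ndufa3, in the membrane arm, had 347, 280, 470 and 477 CPM (1.68, 1.32 to 2.16), and Ndufa4, of complex IV, 410, 397, 612 and 659 CPM (1.54, 1.25 to 1.90). For each of these the WT libraries were the lower pair. Cox7a2l ran the other way, with 724, 789, 674 and 642 CPM, 0.81-fold (0.69 to 0.96) in the double knockout against aged WT.

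**Figure D4:**
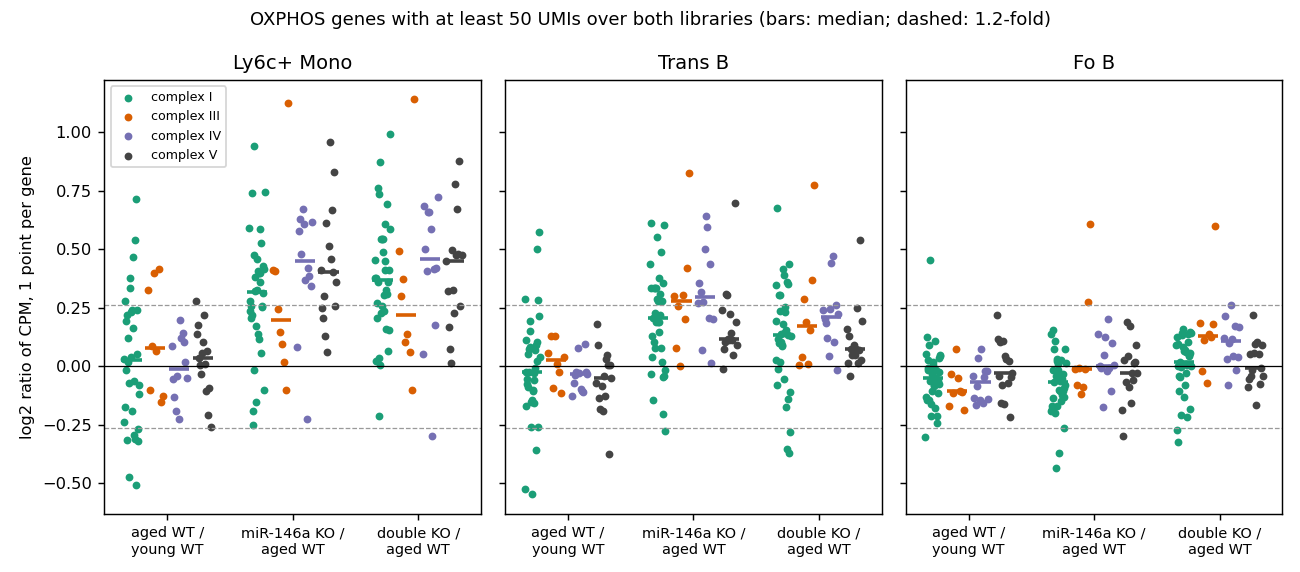
Log2 ratio of each gene's CPM (points, coloured by complex) for aged over young WT, the miR-146a knockout over aged WT and the double knockout over aged WT, in Ly6c+ monocytes, transitional B cells and follicular B cells. In Ly6c+ monocytes the points of both knockout comparisons centre near 0.36 and 0.38 and those of aged over young WT near 0.03; in follicular B cells all 3 groups centre near 0.

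The Ly6c+ monocytes of the knockout libraries differed in other ways as well. The granulocyte list (S100a8, S100a9, Csf3r and Mmp9) summed to 62.8, 88.3, 2285 and 3697 CPM in them, with 2, 1, 1 and 0 of the 4 genes at 0. The dendritic cell list (Flt3, Xcr1, Clec9a and Cd209a) summed to 121, 256, 0 and 5.01 CPM, and the B cell list to 544, 315, 82.0 and 147 CPM. Median depth was 4502, 4442, 6777 and 5637 UMIs. Cells with a UMI of Mki67 or Top2a numbered 2, 0, 15 and 11, and without them the ratios to aged WT were 1.25 and 1.26. Lack of a UMI of both genes does not show that a cell was not dividing, and the part of division was not tested. When all cells were thinned to the same 1000 UMIs the difference was also present, as given above. The part of the other markers was not tested.

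Transitional B cells, recent arrivals from the bone marrow, had the next largest ratio for the miR-146a knockout among types with at least 50 cells in both libraries. Their set level was 18224, 17832, 21104 and 19927 CPM (409, 334, 282 and 369 cells), a ratio of 1.18 (1.15 to 1.21) for the miR-146a knockout and 1.12 (1.09 to 1.14) for the double knockout against aged WT. Complexes III and IV differed most, by 1.27-fold (1.18 to 1.37) and 1.25-fold (1.2 to 1.31) in the miR-146a knockout, against 1.15 (1.10 to 1.2) for complex I and 1.12 (1.07 to 1.17) for complex V. Of 70 genes tested, 30 were at least 1.2-fold higher in the miR-146a knockout than in aged WT and 1, Ndufv2, was lower (0.82, 0.59 to 1.15), against 28.2% and 22.4% of features; the median log2 ratio was 0.21 against 0.05. With TMM scaling 20 were higher and 1 lower. The shares of all features were not recounted with that scaling, so an excess over them there was not tested. In complex IV 8 of 12 genes were higher, and in complex V 3 of 15. For the double knockout the counts were 15 and 3 (Ndufs3, Ndufs7 and Ndufv1, all core subunits of complex I), against 23.8% and 21.1%. The intervals of these 4 lower genes included 1. Without Uqcrq complex III had a ratio of 1.21 (1.12 to 1.31) in the miR-146a knockout. In 45 of 70 genes both knockout libraries were above both WT libraries and in 0 both were below, against 27.7% and 20.4% of features.

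The leading genes in transitional B cells were partly those of the monocytes. Uqcrq had 193, 198, 352 and 340 CPM, 1.78-fold (1.43 to 2.22) in the miR-146a knockout over aged WT. Cox7a2, the common isoform of subunit VIIa, had 301, 281, 439 and 382 CPM (1.56, 1.29 to 1.89), and Atp5k 201, 154, 251 and 225 CPM (1.63, 1.26 to 2.10). Cox7a2l, lower in T cells of the miR-146a knockout than in those of aged WT, was higher here, with 565, 524, 792 and 726 CPM (1.51, 1.32 to 1.74). Cox6c had 419, 411, 581 and 486 CPM (1.41, 1.21 to 1.66). In each of these 5 genes the knockout pair lay above the WT pair. By contrast Atp5g3, prominent in the monocytes, had a ratio of 1.17 (0.90 to 1.52) in these cells.

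Not every transitional B cell of the knockouts was high. Thinned to 1000 UMIs, the median cell held 18, 17, 20 and 19 UMIs of the set and the 90th percentile cell 24, 24, 30 and 27; the variance of the count was 1.19, 1.21, 2.17 and 1.80 times its mean, where counting alone gives about 1. The upper tail thus differed more than the median did. Of markers, Ms4a1, the B cell gene for CD20, had 3652, 3177, 1698 and 2534 CPM, Fcer2a, which rises as follicular cells mature, 241, 262, 72.6 and 145 CPM, and the granulocyte list 22.1, 11.6, 691 and 838 CPM. Without cells holding a Mki67 or Top2a UMI the ratio for the miR-146a knockout was 1.19. The part of cell makeup was not tested.

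Ratios in the other types were as follows. The ratio of the miR-146a knockout to aged WT was 1.10 in both naive and memory Cd8 T cells and 1.06 in naive Cd4 cells. It was 1.02 in memory Cd4 cells and in Ly6c- monocytes, 1.04 in marginal zone B and 1.01 in Fo B cells. It was 0.997 in GC Centroblast, 0.994 in GC Centrocyte and 0.937 in T/B dbl cells. The NK cells (49 in the miR-146a knockout) had a ratio of 1.06 and the DC/Mac cells (44 in aged WT) 1.12, and for the double knockout over aged WT 1.07 and 1.12; the last equals the ratio in transitional B cells when rounded. These ratios are by CPM, and some move or change direction with the scaling. For the miR-146a knockout over aged WT, TMM scaling and the other total gave naive Cd4 cells 0.996 and 1.00. They gave T/B dbl cells 1.02 and 1.03, Fo B cells 1.07 and 1.08, and marginal zone B cells 1.10 and 1.10. Ly6c- monocytes had 1.10 and 1.01, GC Centroblast cells 1.03 and 1.02, and NK cells 1.16 and 1.14. Early activated Cd8 T cells, with 14 cells in aged WT, had the levels given above. The DC/Mac cells had 20286, 20606, 23021 and 23143 CPM, with an erythroid list of 10.4, 17.7, 4113 and 5091 CPM and a macrophage list of 511, 22.2, 2766 and 838 CPM beside them, so their 2 knockout libraries held red cell transcripts that the WT ones nearly lacked, whose part was not tested. With age in WT, GC Centroblast cells were lower, at 19886 against 21368 CPM (0.931, 0.916 to 0.946).

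Summed over classes, the differences with age in WT were small. The set ratio of aged to young WT was 1.02 (1.01 to 1.03) in T cells, 0.963 (0.956 to 0.970) in B cells and 1.04 (1.02 to 1.06) in myeloid cells. The T cell value changes direction with the scaling: it was 0.938 with trimmed-mean (TMM) scaling, which moved the centre of all genes by 0.13 on the log2 scale, and 0.953 when mitochondrial, ribosomal, antigen receptor and haemoglobin genes were left out of the total. In T cells 0 genes of 70 were at least 1.2-fold higher and 2 lower with age, against 28.6% and 9.67% of features. These were Cox7a2l, with 892 CPM in young and 717 CPM in aged WT (0.80, 0.77 to 0.84), and Uqcrfs1, the Rieske iron-sulfur protein of complex III, with 181 and 148 CPM (0.81, 0.74 to 0.89). Genes at the upper end were Cox6b1, with 394 and 463 CPM (1.17, 1.11 to 1.24), Cox5b, 288 and 336 CPM (1.16, 1.09 to 1.24), and Ndufa13, 389 and 444 CPM (1.14, 1.08 to 1.21). In B cells 0 of 71 were higher and 1 lower, against 10.5% and 11.4%; that 1 was the sparse Atp5s (0.77, 0.50 to 1.17). Ratios whose intervals lay furthest below 1 were those of Ndufa1 (141 and 120 CPM, 0.85) and Uqcr10 (205 and 176 CPM, 0.86), both small membrane subunits. Atp5b, the catalytic beta subunit, was at the upper end in B cells, with 592 and 627 CPM (1.06, 1.02 to 1.10).

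In T cells of the miR-146a knockout the set ratio to aged WT was 1.09 (1.08 to 1.10), and in B cells 1.07 (1.06 to 1.08). The size of the T cell ratio depends on the total, at 1.01 without mitochondrial, ribosomal, receptor and haemoglobin genes, since ribosomal genes took a smaller part of these cells' UMIs (0.869-fold). In T cells 6 of 70 genes were at least 1.2-fold higher and 0 lower, against 23.5% and 13.7% of features, but with TMM scaling, and with the other total, 1 was higher and 2 lower. In B cells the counts were 1 and 1 of 71, against 13.4% and 17.5%, and 5 and 0 with the other total. In both classes the shares of features were counted by CPM only. After Uqcrq the leading genes were Atp5e, the epsilon subunit of the ATP synthase stalk, with 526 CPM in aged WT and 650 CPM in the knockout in T cells (1.24, 1.17 to 1.31), and Cox8a, a small subunit of complex IV, with 676 and 822 CPM (1.22, 1.16 to 1.28). The other 3 past 1.2-fold in T cells were Atp5k (1.23), Cox5a (1.21) and Ndufb8 (1.21). In B cells the leading genes after Uqcrq were Atp5e (501 and 589 CPM, 1.18) and Cox6c (398 and 468 CPM, 1.18). Cox7a2l was lower in T cells, at 612 against 717 CPM (0.85, 0.81 to 0.90), and Ndufs1 in B cells, at 36.3 against 44.4 CPM (0.82, 0.70 to 0.96). In all 3 aged libraries Cox7a2l in T cells was below its young level of 892 CPM.

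The double knockout differed little from the miR-146a knockout in the set: 0.978-fold in T cells and 1.01-fold in B cells, both of which change side of 1 with TMM scaling (1.02 and 0.997). Of 70 genes tested in T cells, the class in which miR-155 was deleted, 0 were 1.2-fold higher and 0 lower, against 10.8% and 19.9% of features. The lowest ratios in T cells were those of Atp5e (650 and 552 CPM, 0.85, 0.80 to 0.90) and Ndufa3 (337 and 286 CPM, 0.85, 0.79 to 0.91), and the highest that of Cox7a2l (612 and 697 CPM, 1.14, 1.08 to 1.2). Atp5e and Ndufa3 were also the lowest in B cells, in which miR-155 was not targeted, at 527 against 589 CPM (0.89) and 238 against 277 CPM (0.86). Uqcrq was level between the knockouts, at 382 and 389 CPM in T cells.

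The myeloid sum does not give the direction of all its parts. It was 20956, 21736, 19998 and 19287 CPM, a ratio to aged WT of 0.92 for the miR-146a knockout and 0.887 for the double knockout. Ly6c+ monocytes and DC/Mac cells were each higher in the knockouts. Ly6c- monocytes had 21433 and 21457 CPM in the knockouts, within the counting interval of aged WT (20043 to 21807). Granulocytes, the type with the lowest level, were 293 of 715 and 461 of 919 myeloid cells in the knockouts, against 16 of 191 in aged WT. With each other type weighted as in aged WT, and granulocytes left out as too few there, the ratios were 1.18 and 1.19. With TMM scaling of the whole sum they were 1.2 and 1.25. Of 71 genes tested in myeloid cells, 6 were at least 1.2-fold higher and 27 lower in the miR-146a knockout, against 13.3% and 57.8% of features, and with TMM scaling 32 were higher and 2 lower, and with the other total 2 and 38. The shares of features were counted by CPM only. The part of the granulocyte share in these counts was not tested. Ndufv3 (150 and 225 CPM, 1.5) and Atp5j, the coupling factor of the peripheral stalk (353 and 461 CPM, 1.31), were higher by CPM, and Cox7a2l (720 and 477 CPM, 0.66) and Uqcrfs1 (244 and 161 CPM, 0.66) lower. Ndufv3 and Atp5j stood at 263 and 446 CPM in granulocytes of that knockout, above the aged WT myeloid level, and Cox7a2l and Uqcrfs1 at 184 and 85.1 CPM, below it.

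Related genes were read for the same comparison, the miR-146a knockout against aged WT. In Ly6c+ monocytes glycolysis differed by more than oxidative phosphorylation, with 8 of 9 genes tested at least 1.2-fold higher and 0 lower, against 28.3% and 24.6% of all features, and a summed ratio of 1.59 (1.49 to 1.70). Among them were Pgk1, the first ATP-yielding step, at 404 against 188 CPM (2.14), Pgam1, the mutase after it, at 298 against 165 CPM (1.81), and Ldha, which makes lactate, at 448 against 291 CPM (1.54). The mitochondrial ribosome, which translates the mitochondrially encoded subunits, had 17 of 35 genes higher and 1 lower (1.23, 1.17 to 1.30). Complex II had 0 higher and 0 lower of 4 (0.98, 0.81 to 1.18), and assembly factors 2 higher and 1 lower of 7 (1.07, 0.94 to 1.22). So nuclear subunits of complexes I, III, IV and V and the mitochondrial ribosome were higher, and complex II and the mitochondrially encoded genes were near 1.

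In T cells the same comparison gave 10 of 14 glycolysis genes higher and 0 lower, against 23.5% and 13.7% of features (1.32, 1.29 to 1.35), of which Tpi1, the isomerase of the 3-carbon sugars, had 65.3 and 115 CPM (1.76). The mitochondrially encoded genes were lower (0.90, 0.894 to 0.909) with 0 of 12 past 1.2-fold, and the mitochondrial ribosome was divided, with 11 of 76 higher and 11 lower. In transitional B cells glycolysis had 3 higher and 1 lower of 10 (1.05, 0.974 to 1.13), the mitochondrial ribosome 18 higher and 6 lower of 62 (1.14, 1.08 to 1.19), where the share higher is near that of all features (28.2% higher, 22.4% lower), and the carrier list 4 higher and 0 lower of 6 (1.27, 1.18 to 1.36). Of that list, Atpif1, the inhibitor of ATP synthase, had 162 and 251 CPM (1.55) and Ucp2, a carrier related to the uncoupling protein, 492 and 679 CPM (1.38). The directions of the glycolysis and mitochondrially encoded lists in T cells, and of the ribosome and carrier lists in transitional B cells, held with TMM scaling and with the other total. The direction of the T cell mitochondrial ribosome sum did not (1.01, then 0.972 and 0.942).

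The promoters of the set share letters that the rule did not use. RefSeq promoters (GRCm38.p6, 250 bases before to 50 after the start) were matched for 63 of the 74 genes. They were searched on both strands for the palindromic NRF1 motif and for the YY1 motif, both in the form seen in capitals in the promoters of Atp5k and Ndufs6, and for CCGGAAG, bound by ETS factors such as GABP. These factors are known for genes of mitochondrial proteins. The NRF1 letters occurred for 15 of 63 genes (23.8%) against 5.19% of all genes, the ETS letters for 14 (22.2%) against 9.93% and the YY1 letters for 4 (6.35%) against 0.755%; 29 held at least 1, against 14.5%. The motifs do not overlap in the promoters printed. Those of Atp5k, Atp5g3 and Cox6b1 are shown because these genes were prominent in Ly6c+ monocytes, and that of Ndufs6, a subunit of complex I, for its pair of motifs. Motif letters are in capitals, and an ETS match on the other strand reads CTTCCGG. Atp5k (chr5:108434350-108434649, minus strand) holds NRF1 and ETS letters, Atp5g3 (chr2:73911277-73911576, minus) NRF1, Cox6b1 (chr7:30626065-30626364, minus) ETS, and Ndufs6 (chr13:73328433-73328732, minus) NRF1 and YY1.
Atp5k: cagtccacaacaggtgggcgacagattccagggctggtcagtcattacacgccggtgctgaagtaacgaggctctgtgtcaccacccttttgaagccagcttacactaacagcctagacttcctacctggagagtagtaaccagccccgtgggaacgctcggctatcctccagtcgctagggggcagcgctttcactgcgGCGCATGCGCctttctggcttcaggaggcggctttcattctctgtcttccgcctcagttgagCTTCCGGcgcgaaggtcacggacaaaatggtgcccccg
Atp5g3: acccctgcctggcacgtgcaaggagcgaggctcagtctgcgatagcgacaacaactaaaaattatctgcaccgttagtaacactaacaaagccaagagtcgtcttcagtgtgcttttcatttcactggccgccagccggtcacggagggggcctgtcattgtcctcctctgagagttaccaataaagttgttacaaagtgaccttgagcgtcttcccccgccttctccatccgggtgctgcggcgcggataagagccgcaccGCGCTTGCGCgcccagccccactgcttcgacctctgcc
Cox6b1: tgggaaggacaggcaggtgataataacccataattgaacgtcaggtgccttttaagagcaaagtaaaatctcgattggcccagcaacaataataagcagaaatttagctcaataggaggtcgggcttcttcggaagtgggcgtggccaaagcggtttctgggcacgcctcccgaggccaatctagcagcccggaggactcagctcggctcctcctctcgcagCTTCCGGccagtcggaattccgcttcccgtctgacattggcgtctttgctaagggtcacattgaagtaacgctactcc
Ndufs6: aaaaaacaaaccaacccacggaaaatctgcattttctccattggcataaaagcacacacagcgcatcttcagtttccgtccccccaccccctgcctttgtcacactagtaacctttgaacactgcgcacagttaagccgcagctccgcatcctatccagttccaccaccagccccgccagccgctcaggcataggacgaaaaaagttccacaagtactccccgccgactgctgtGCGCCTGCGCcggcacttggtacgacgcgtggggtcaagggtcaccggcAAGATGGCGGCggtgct
A match says nothing on whether the factor binds in these cells.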

How the data were processed

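The deposited files are raw UMI counts per gene and cell barcode for 4 libraries and a table of cell type names by the authors. Cell Ranger 3.0.0 and genome build mm10 are named in the submitters' processing notes; no source used here states how cells were filtered or named. No count was changed and no further cell filter or doublet caller was applied; the authors' names mark T/B doublets, and unnamed barcodes were left out. UMIs were summed per library and type, and over T, B and myeloid classes (without NK and T/B dbl cells), and given per 1000000 UMIs of those cells (CPM). With 1 library per group no test was made. Ratios carry exact conditional binomial intervals, levels Poisson and shares Clopper-Pearson intervals, all at 95% and for counting error only. Counts of genes past 1.2-fold use features with at least 50 UMIs over both libraries and a pseudocount of 1 UMI. Where the values did not set the choice, genes were named by rule: the highest and lowest of each complex, up to 3 per direction, comparison and class by the interval bound nearest 1, the 10 widest ranges over types among genes with at least 200 UMIs, and all isoforms. The members, lists and rules were chosen with earlier results of these data known. The 3' end check compared the last 400 bases in words of 50 bases with other transcripts; 8 of 75 gene entries shared at least 50% and 47 none. On simulated counts for the T cell comparison of the miR-146a knockout with aged WT (8488 genes, 200 changed), 99.5% of changed genes were recovered and 95.6% of intervals held the true ratio. Python 3.11.15, numpy 2.4.6, scipy 1.17.1, pandas 2.3.3 and matplotlib 3.10.9 were used.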

Additional observations from a re-analysis of the deposited data

Results flagged for a closer look

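The set ratio differed in direction or by more than its counting interval between the 3 classes in each comparison; with 1 library per group the difference between classes was not tested. For aged over young WT it was 1.02 in T, 0.963 in B and 1.04 in myeloid cells. For the miR-146a knockout over aged WT it was 1.09, 1.07 and 0.92. For the double knockout over the miR-146a knockout it was 0.978, 1.01 and 0.964, and for the double knockout over aged WT 1.06, 1.08 and 0.887.

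Barcodes without a cell type name and with over 9000 UMIs, which no comparison used, held the set at 22683 CPM in the miR-146a knockout (271 barcodes), above the same barcodes of young WT (21369 CPM, 42 barcodes) and aged WT (13544 CPM, 92 barcodes); in the double knockout it was 19609 CPM (240 barcodes). Jchain, a gene of antibody-secreting cells, stood at 20269, 21414, 9692 and 14108 CPM in these barcodes in the order young WT, aged WT, miR-146a knockout and double knockout.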

How the results depend on the processing

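No paired analysis was possible because each group is 1 library. Values for the miR-146a knockout are relative to aged WT and those for the double knockout relative to the single one, unless another pair is named, and the cause of a change was not tested where the setting itself does not show it. Of 12 set ratios that changed direction, TMM scaling turned T cells to 0.938 for aged over young WT, 1.02 for the double knockout, and B cells to 0.997; it turned myeloid cells to 1.2 (miR-146a knockout), 1.04 (double knockout) and 1.25 (double knockout over aged WT). The total without mitochondrial, ribosomal, receptor and haemoglobin genes gave T cells 0.953 (aged over young) and 1.02 (double knockout) and B cells 0.987 (double knockout). The type mix of aged WT gave myeloid cells 1.18 and, for the double knockout over aged WT, 1.19, both without granulocytes (16 cells in aged WT). It gave 1.01 for the double knockout over the single one, with granulocytes. Ratios that kept direction but moved by more than their interval were, with TMM scaling, B cells 0.981 (aged over young) and 1.09 (miR-146a knockout), T cells 1.04, transitional B cells 1.14 and Ly6c+ monocytes 1.32; with the other total, T cells 1.01, B cells 1.10 and myeloid cells 0.839 and 0.942 (double knockout). The type mix of aged WT gave T cells 1.01 with age and 1.07 in the miR-146a knockout, without early activated Cd8 cells (14 in aged WT). B cells had 1.03 with that mix. Weighting cells equally gave T cells 1.06 and 0.990 (double knockout), and thinning to 1000 UMIs 1.07 and 0.989, and 1.00 in myeloid cells with age. Leaving out the 5 most abundant genes gave T cells 1.04 with age, B cells 1.06 and 1.02 (double knockout), myeloid cells 0.943 and Ly6c+ monocytes 1.32; leaving out matched genes that are no subunit gave T cells 1.03 with age. Without cells holding a Mki67 or Top2a UMI, chosen after the data were seen, B cells had 1.05 and myeloid cells 0.898. Leaving out Uqcrq, also chosen after the data were seen, moved no set ratio. The double knockout over aged WT also moved without changing direction. T cells had 1.03 with the other total, and 1.05 with TMM scaling, with the type mix and with equal weights. B cells had 1.05 with the type mix, 1.07 with equal weights and with thinning, and 1.06 without cells holding a Mki67 or Top2a UMI. Myeloid cells had 0.790 with the other total and 0.915 without the 5 most abundant genes.

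Counts of genes past the fold, both directions together, were small and moved with it. At 1.5-fold the T cell counts were 0 with age and 1 in the miR-146a knockout, the B cell counts 0 and 1, and the myeloid counts 2, 5 and 0 (double knockout). TMM scaling gave T cells 4 with age and 3 (1 higher, 2 lower) in the miR-146a knockout, and the other total 3 (1 higher, 2 lower) in T and 5 in B cells. In myeloid cells of the miR-146a knockout TMM scaling turned 6 higher and 27 lower into 32 higher and 2 lower. In transitional B cells 30 higher became 20. With at least 20 UMIs the count was 2 in B cells with age and 1 in T cells for the double knockout; with at least 200 UMIs it was 0 in B cells with age and for the double knockout, and 5 with age and 3 for the double knockout in myeloid cells.

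Depth limits the small types: 14 early activated Cd8 cells and 16 granulocytes in aged WT leave single genes with few UMIs. Genes whose 3' end is shared with other transcripts (Uqcrc2, Atp5o, Ndufs3, Ndufb6, Atp5h, Cox5a and Cox7c for at least 50% of it) may hold others' reads. With 1 pooled library per group, differences between mice, litters or preparations cannot be told apart from those between genotypes or ages.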
